A study of Homo sapiens with 4 samples.

Results

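Peaks of LAP-Smad2 and LAP-Smad3 inside protein-coding sequence, away from promoters, were taken from the 2 peak lists obtained after TGFβ-1. A peak was a member when the centre of its interval lay in a coding (CDS) interval of a protein_coding transcript of GENCODE release 44 and more than 3 kb from the start of every annotated transcript. The rule used position only. It found 704 of 26828 LAP-Smad2 peaks and 823 of 62551 LAP-Smad3 peaks, 1527 of 89379 in all.

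The cells were MDA-MB-231, a breast cancer line, stably carrying a BAC transgene in which SMAD2 or SMAD3, with its own control elements, was fused to the GFP-containing LAP tag (localization and affinity purification). The untagged Smads were still present in every group, and the BAC-carrying cells had been selected with Geneticin and sorted on GFP. Chromatin was precipitated with an anti-GFP antibody from 4 groups of 1 library each: LAP-Smad2 untreated, LAP-Smad3 untreated, and both lines given 10 ng/mL TGFB1 over 2 h. No test between conditions was therefore possible, peaks of 1 library are not replicates, and the 95% Wilson intervals given below cover counting error only. The names under which the untreated lists were deposited give the opposite Smad to the labels, so these libraries are named by label and no direction was drawn from them.

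Smad2 and Smad3 are transcription factors that the activated TGFβ type I receptor phosphorylates, after which they join Smad4 and enter the nucleus. The Smad binding element holds GTCT or its complement AGAC, and the GC-rich elements called 5GC include GGCGC and GGCCG. Most TGFβ-responsive elements are described in promoters and enhancers. Coding exons are richer in GC than most of the genome, and those of some gene families recur almost unchanged at several places.

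The windows below, each 200 bases on the centre of a peak in hg38 and written 5′ to 3′ on the coding strand, carry the main patterns. Capitals mark the strings CAGAC (reverse complement GTCTG), then GGCGC (reverse complement GCGCC), and also GGCCG (reverse complement CGGCC). The first 3 are centred on LAP-Smad2 peaks that overlap a LAP-Smad3 peak. They lie in the last exon of HRNR, which encodes the epidermal repeat protein hornerin, and the last exon of HS3ST3A1, a heparan sulfate 3-O-sulfotransferase. The third lies in an inner exon of TRERF1, a zinc finger transcriptional regulator. The LAP-Smad3 peaks of HS3ST3A1 and TRERF1 end inside the printed windows, at 13496597 and 42263471. The CAGAC string of HS3ST3A1 lies outside its LAP-Smad3 peak.
HRNR, chr1:152216007-152216206, minus strand: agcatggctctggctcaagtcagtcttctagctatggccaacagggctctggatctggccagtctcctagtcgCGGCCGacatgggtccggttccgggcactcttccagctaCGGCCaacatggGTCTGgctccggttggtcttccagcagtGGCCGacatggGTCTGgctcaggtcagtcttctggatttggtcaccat
HS3ST3A1, chr17:13496458-13496657, minus strand: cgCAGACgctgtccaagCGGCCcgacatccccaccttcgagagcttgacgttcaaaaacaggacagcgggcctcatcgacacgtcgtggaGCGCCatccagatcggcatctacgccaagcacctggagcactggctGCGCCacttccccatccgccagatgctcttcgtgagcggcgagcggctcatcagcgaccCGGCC
TRERF1, chr6:42263306-42263505, minus strand: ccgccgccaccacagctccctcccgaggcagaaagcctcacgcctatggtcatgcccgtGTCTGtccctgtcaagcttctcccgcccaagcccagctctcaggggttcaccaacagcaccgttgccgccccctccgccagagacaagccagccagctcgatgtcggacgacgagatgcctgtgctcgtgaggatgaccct

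The next pair are the members with the highest −log10 q, the strength of evidence that the peak caller gave, of each list: ETV7, an ETS family transcription factor, for LAP-Smad2, and another stretch of HRNR for LAP-Smad3. Both HRNR windows hold the string acatggGTCTG more than once.
ETV7, chr6:36375837-36376036, minus strand: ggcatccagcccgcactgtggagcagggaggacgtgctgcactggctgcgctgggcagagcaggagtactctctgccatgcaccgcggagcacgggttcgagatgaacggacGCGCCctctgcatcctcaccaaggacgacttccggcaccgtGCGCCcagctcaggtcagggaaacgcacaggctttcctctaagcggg
HRNR, chr1:152214296-152214495, minus strand: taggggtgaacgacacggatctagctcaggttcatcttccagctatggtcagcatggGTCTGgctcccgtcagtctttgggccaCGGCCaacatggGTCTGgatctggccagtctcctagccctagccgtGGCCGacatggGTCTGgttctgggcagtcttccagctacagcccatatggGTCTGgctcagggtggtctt

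The last 3 come from genes of the TGFβ pathway: PMEPA1, a feedback inhibitor of the pathway, under a LAP-Smad2 peak, and TGFBR3, the co-receptor betaglycan, and DAB2, an endocytic adaptor, under LAP-Smad3 peaks. The PMEPA1 window holds 15 CpG, 2 GGCGC and 4 GGCCG matches at 71.5% GC. The TGFBR3 window holds 1 CpG and 0 matches at 58.5% GC, and the DAB2 window 2 CpG and 1 CAGAC match at 54.5% GC. In these 3 genes the GC contents differ in the direction found between the lists, but by more than the mean difference of 5.54 points. SNAI1, the other pathway gene with a LAP-Smad2 member, was at 63.5% GC.
PMEPA1, chr20:57652129-57652328, minus strand: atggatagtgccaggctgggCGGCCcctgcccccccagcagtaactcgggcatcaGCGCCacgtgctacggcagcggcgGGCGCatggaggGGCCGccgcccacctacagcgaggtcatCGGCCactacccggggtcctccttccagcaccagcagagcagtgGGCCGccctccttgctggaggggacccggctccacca
TGFBR3, chr1:91797306-91797505, minus strand: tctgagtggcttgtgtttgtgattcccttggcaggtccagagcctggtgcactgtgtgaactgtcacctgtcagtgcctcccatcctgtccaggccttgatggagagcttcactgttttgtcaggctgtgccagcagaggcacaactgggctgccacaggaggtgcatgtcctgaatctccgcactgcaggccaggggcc
DAB2, chr5:39381425-39381624, minus strand: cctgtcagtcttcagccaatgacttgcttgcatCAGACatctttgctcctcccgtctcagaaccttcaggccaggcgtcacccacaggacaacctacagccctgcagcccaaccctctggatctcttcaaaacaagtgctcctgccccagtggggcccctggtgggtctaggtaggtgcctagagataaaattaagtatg

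Coding peaks off promoters made up 2.62% (2.44 to 2.82) of the LAP-Smad2 list and 1.32% (1.23 to 1.41) of the LAP-Smad3 list. The CDS bases at which a member could lie sum to 15.5 Mb in 13753 genes, 0.501% of the genome. Per Mb of this CDS there were 45.5 LAP-Smad2 and 53.2 LAP-Smad3 members, against 8.69 and 20.3 peaks per Mb of genome, which is 5.24 and 2.63 times the density of each list as a whole. These ratios use full chromosome lengths and are not weighted by GC content, so they do not show a preference for coding sequence as such. The LAP-Smad3 list was 2.33 times as long as the LAP-Smad2 list but held only 1.17 times as many members. When the LAP-Smad3 list was limited to as many peaks as the LAP-Smad2 list, by −log10 q, it held 357 members, so which list has more members depends on list length. A further 2005 LAP-Smad2 and 1839 LAP-Smad3 peaks lay in CDS within 3 kb of a transcript start and were not members.

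The members were of ordinary strength for their lists. Fold enrichment, the ratio of pileup to local background that the authors' peak caller gave at the summit, had a median of 3.88 in LAP-Smad2 members and 3.98 in all LAP-Smad2 peaks. The medians were 5.04 and 4.97 for LAP-Smad3. Members were 242.5 and 231 bp wide at the median, and lay 7608 and 7276 bp from the nearest start. The nearest members to a start were at 3015 and 3005 bp, and the nearest coding peaks that the distance left out were at 2975 and 2999 bp.

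Many members had exactly the same fold value, above all in the LAP-Smad3 list. The 823 LAP-Smad3 members held 299 distinct values, and 422 of them (51.3%, 47.9 to 54.7) were whole multiples of 0.552 within 0.0005 of a step, against 28.9% of all LAP-Smad3 peaks. The multiple was 10 at the median and ran from 8 at the 10th percentile to 12 at the 90th. In LAP-Smad2, 139 of 704 members (19.7%, 17.0 to 22.8) were multiples of 0.237, with a median of 17, against 20.9% of all peaks. MACS2 adds 1 to the pileup and to the background before it divides, so at a constant background these multiples are the pileup plus 1. If the pileup was not rescaled, the LAP-Smad3 members on the steps stood on a median of 9 extended reads at the summit and the LAP-Smad2 members on 16. DAB2, at 5.52, and HRNR, with 1 member at 8.83 and another at 8.28, are LAP-Smad3 members on these steps.

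GC content separated the lists. The mean over the 200 bp window was 66.1% (SD 4.35 over 704 peaks) in LAP-Smad2 members and 60.6% (SD 4.19 over 823 peaks) in LAP-Smad3 members, a difference of 5.54 percentage points. All CDS bases that meet the rule had a mean of 47.6% (SD 11.0). The difference was of the same sign in 21 of 21 chromosomes with at least 5 members of each list, from 1.32 to 10.9 points. It was 5.32 points over all peaks of the lists, 7.26 for coding peaks near a start and 2.57 for other peaks off promoters. Members of the library labelled LAP-Smad2 untreated, 64 peaks, had a mean of 70.6%, and the 46 of the library labelled LAP-Smad3 untreated a mean of 66.2%.

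Set against the CDS available at each GC content, the 2 lists occupied different ranges. CDS below 55% GC makes up 72.0% of the bases and held 1 LAP-Smad2 and 50 LAP-Smad3 members. Between 55 and 60% GC there were 25 LAP-Smad2 and 322 LAP-Smad3 members, 14.4 and 186 per Mb. Between 60 and 65% the lists were closest, with 250 and 327 members, 168 and 219 per Mb. Between 65 and 70% the order turned, with 307 LAP-Smad2 and 107 LAP-Smad3 members, 395 and 138 per Mb. At 75% and above, 30 LAP-Smad2 members and 0 of 823 LAP-Smad3 members were found. DAB2 at 54.5% lies in the low range, where LAP-Smad2 had 1 member, and PMEPA1 at 71.5% in the high range.

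**Figure D1:**
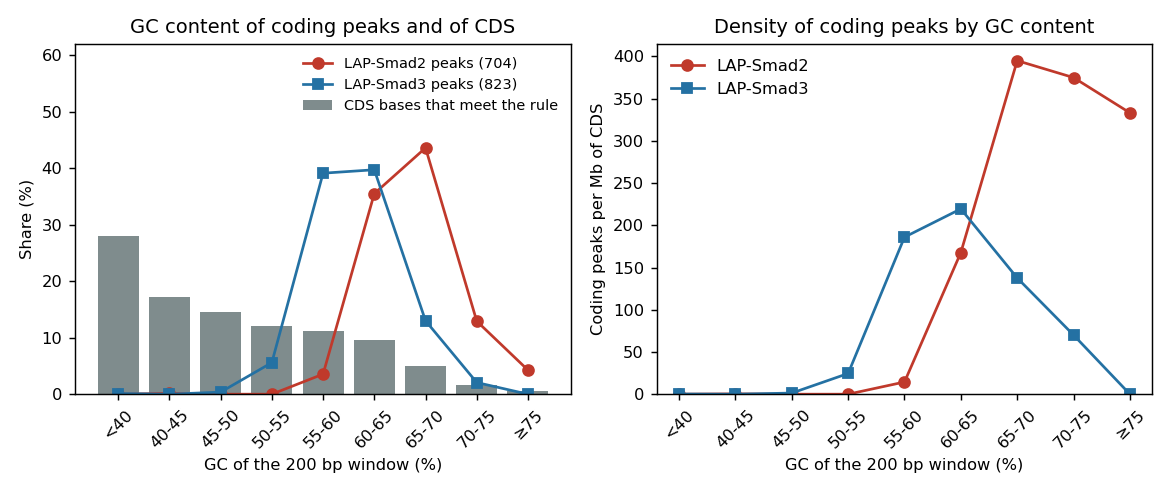
Left, share (%) of LAP-Smad2 members, LAP-Smad3 members and CDS bases that meet the rule in each class of GC content of the 200 bp window; right, members per Mb of CDS in the same classes. LAP-Smad3 density peaks at 219 per Mb between 60 and 65% GC and LAP-Smad2 density at 395 per Mb between 65 and 70%.

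The GC content was local. In 50 bp steps it fell from 66.7% at the centre of LAP-Smad2 members to 52.1% at 500 bp on the left and 52.2% on the right, and to 49.6% and 50.1% at 1000 bp. LAP-Smad3 members stood at 60.8% at the centre and at 51.2% and 51.0% at 1000 bp, so at that distance the order of the lists was turned. Within their own genes, members also sat in the GC-rich part: in genes with at least 1000 bp of CDS that meets the rule, 469 of 518 LAP-Smad2 members and 414 of 573 LAP-Smad3 members had a higher GC content than the median of their gene. The median percentile within the gene was 86.3 for LAP-Smad2 and 71.6 for LAP-Smad3, and the window exceeded the mean of its gene by 6.92 and 3.77 points. In TNXB, which encodes the matrix protein tenascin X and has a mean of 64.0%, the 6 LAP-Smad2 members ran from 63.5 to 77.5% and the 4 LAP-Smad3 members from 62.5 to 69.0%. In TRERF1, with a mean of 57.7%, the 2 LAP-Smad2 members were at 61.0 and 65% and the 5 LAP-Smad3 members between 58.5 and 66.5%, so that both lists lay above the mean of this gene.

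**Figure D2:**
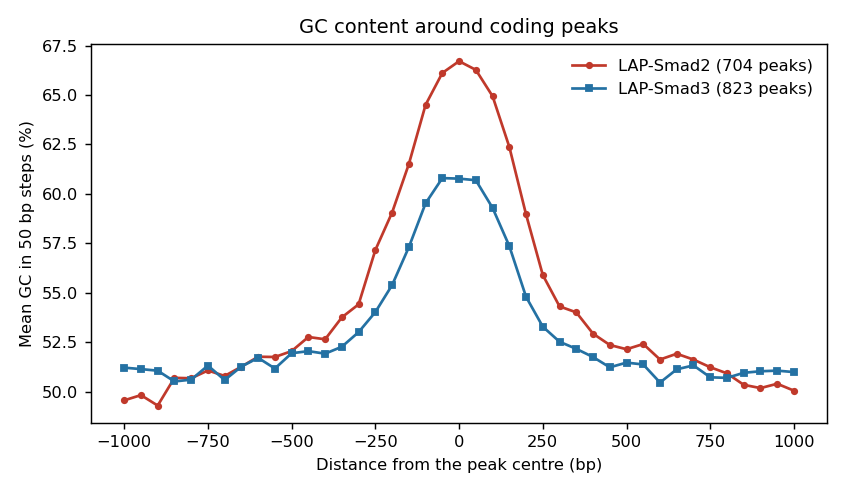
Mean GC content (%) in 50 bp steps against distance (bp) from the peak centre for the 704 LAP-Smad2 and 823 LAP-Smad3 members, to 1000 bp on either side. Both curves rise most steeply near the centre, where LAP-Smad2 reaches 66.7%.

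CpG and motif counts followed GC content. LAP-Smad2 windows held 12.4 CpG on average (SD 5.62) and LAP-Smad3 windows 7.59 (SD 3.99), against 4.30 in all CDS windows that meet the rule. CDS windows weighted to the GC content of the members (in bins of 2%) held 11.5 and 7.68, so most of the gap between the lists is also present in CDS of equal GC content. GGCCG, with its reverse complement CGGCC, was present in 63.6% (60 to 67.1) of LAP-Smad2 and 40.6% (37.3 to 44) of LAP-Smad3 windows, against 60.3% and 40.5% in CDS of equal GC content and 57.6% and 35.3% of all peaks. GGCGC was present in 44.6% (41.0 to 48.3) and 23.5% (20.7 to 26.5), against 43.2% and 25.3%, and over all peaks its shares were higher, at 56.8% and 43.2%. CAGAC was present in 37.5% (34.0 to 41.1) and 40.6% (37.3 to 44), against 36.2% and 41.0%, and over all peaks in 35.0% and 34.5%. The E-box CANNTG was present in 67.6% and 71.1% of windows, against 68.6% and 71.4%, and over all peaks in 51.5% and 55.6%. The AP-1 string TGANTCA was present in 11 LAP-Smad2 (1.56%) and 21 LAP-Smad3 windows (2.55%). Its shares were 1.66% and 2.69% in CDS of equal GC content and 1.32% and 2.63% over all peaks. AGGTCA was present in 13.1% and 12.9% of windows, against 14.0% and 27.3% of all peaks. For all 9 strings searched in both lists, which also included the core GTCT, the E-box CAGCTG, and the strings AGGTCA as well as AGAACA, the interval of the ratio to CDS of equal GC content held 1. Matches were counted on both strands, GTCT lies within GTCTG and CAGCTG within CANNTG, and a match is a description of letters only.

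Within the coding sequence, LAP-Smad2 members lay more often in the last coding exon. The share was 33.0% (29.6 to 36.5; 232 of 704) for LAP-Smad2 and 24.1% (21.3 to 27.1; 198 of 823) for LAP-Smad3, against 21.8% of the CDS bases. In CDS weighted to the GC content of the members the share was 28.9% and 24.5%, so the LAP-Smad2 share lay just above its reference and the LAP-Smad3 share at it. Without windows that have a near-identical copy elsewhere in the genome, the LAP-Smad3 share was 20.2%. Inner exons held 58.8% and 69.0% of members against 71.5% of bases, first coding exons 4.55% and 3.04% against 3.00%, and genes with a sole coding exon 3.69% and 3.89% against 3.71%. PMEPA1, SNAI1 and HS3ST3A1 held LAP-Smad2 members in their last exon, exon 4 of PMEPA1, 3 of SNAI1 and 2 of HS3ST3A1. The last exon of HS3ST3A1 also held a LAP-Smad3 member. TGFBR3 and DAB2 held LAP-Smad3 members in inner exons, exons 3 and 11.

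The exons that held LAP-Smad2 members were of intermediate length. Their coding length was 311.5 bp at the median, against 218 bp for LAP-Smad3 members and 184 bp over CDS bases. Exons of 200 to under 500 bp held 34.2% (30.8 to 37.8) of LAP-Smad2 members, against 25.2% of CDS weighted to the same GC content, and exons of at least 1 kb held 17.0% (14.4 to 20) against 24.2%. Exons under 100 bp held 2.98% (1.96 to 4.52) against 5.39%. For LAP-Smad3 the shares were 26.5% (23.6 to 29.6) against 24.1% in exons of 200 to under 500 bp, 18.2% (15.7 to 21.0) against 19.5% in those of at least 1 kb and 9.11% (7.33 to 11.3) against 7.95% in those under 100 bp, so the 3 LAP-Smad3 intervals held their reference. For the longest class the LAP-Smad3 share depended on windows that have a near-identical copy. Without them, 12.8% of 608 LAP-Smad3 members lay in exons of at least 1 kb. The reference of 19.5% still includes CDS with a copy and is not a like one for this set. The LAP-Smad2 share without such windows stayed at 17.0%. The order of the lists in this class was then turned. The LAP-Smad2 peak with the highest −log10 q, in ETV7, lay in an exon of 165 bp, and the HRNR exon under both lists is 8412 bp long.

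**Figure D3:**
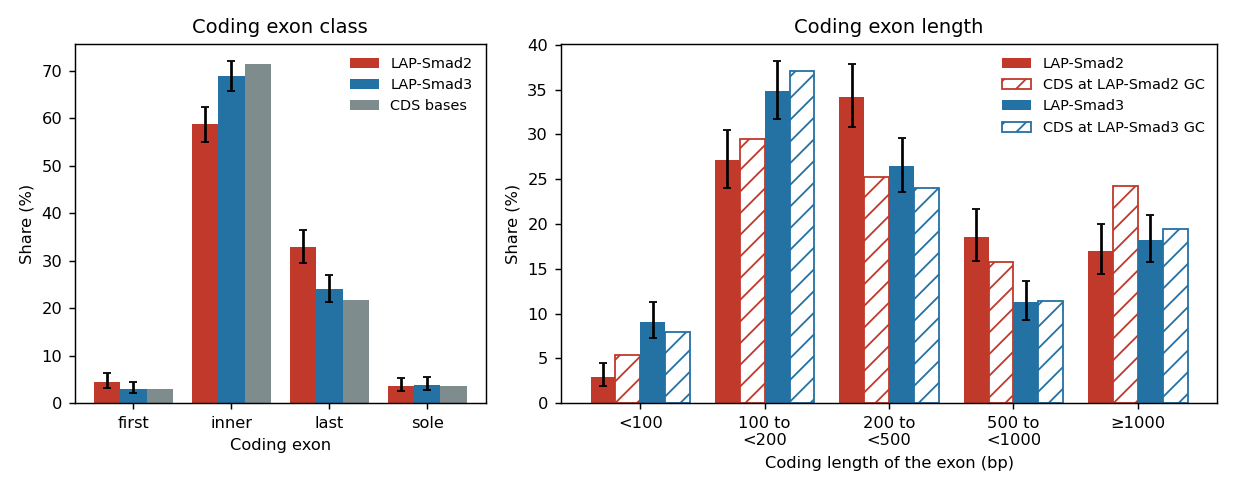
Left, share (%) of members and of CDS bases that meet the rule in first, inner, last and sole coding exons; right, share (%) of members by coding length of the exon beside CDS weighted to the same GC content (hatched). Bars with error lines are members with 95% Wilson intervals, and LAP-Smad2 exceeds its hatched bar at 200 to under 500 bp and falls below it at 1000 bp and more.

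Of the LAP-Smad2 members, 86 (12.2%, 10.0 to 14.8) overlapped a peak of the LAP-Smad3 list by at least 1 bp, against 24.5% of all LAP-Smad2 peaks and 30.4% of other peaks off promoters. Coding peaks within 3 kb of a start had a share like that of the members, 10.3% (9.07 to 11.7). Of the LAP-Smad3 members, 74 (8.99%, 7.22 to 11.1) overlapped a LAP-Smad2 peak, against 10.6% of all LAP-Smad3 peaks and 10.6% of coding peaks near a start. The LAP-Smad2 share was thus below its list and the LAP-Smad3 interval held the share of its list. The LAP-Smad2 share depended on what was counted, and fell to 5.97% with summits within 100 bp, to the same value where 50% of both intervals had to overlap, and to 5.40% with equally long lists. The LAP-Smad3 share was 4.74% with summits within 100 bp and 5.22% where 50% of both intervals had to overlap. The shares over all peaks were not counted under these settings, so 24.5% and 10.6% are no reference for them. With the list labelled LAP-Smad2 untreated, 14 LAP-Smad2 members (1.99%) and 16 LAP-Smad3 members (1.94%) overlapped, against 14.1% and 7.27% of all peaks and 2.34% and 2.56% of coding peaks near a start. With the list labelled LAP-Smad3 untreated the counts were 26 (3.69%) and 6 (0.729%), against 9.25% and 1.10% of all peaks and 8.03% and 1.52% of coding peaks near a start. HS3ST3A1 was the site at which all 4 lists had a peak, with a fold of 5.11 in LAP-Smad2 and 7.54 in LAP-Smad3.

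**Figure D4:**
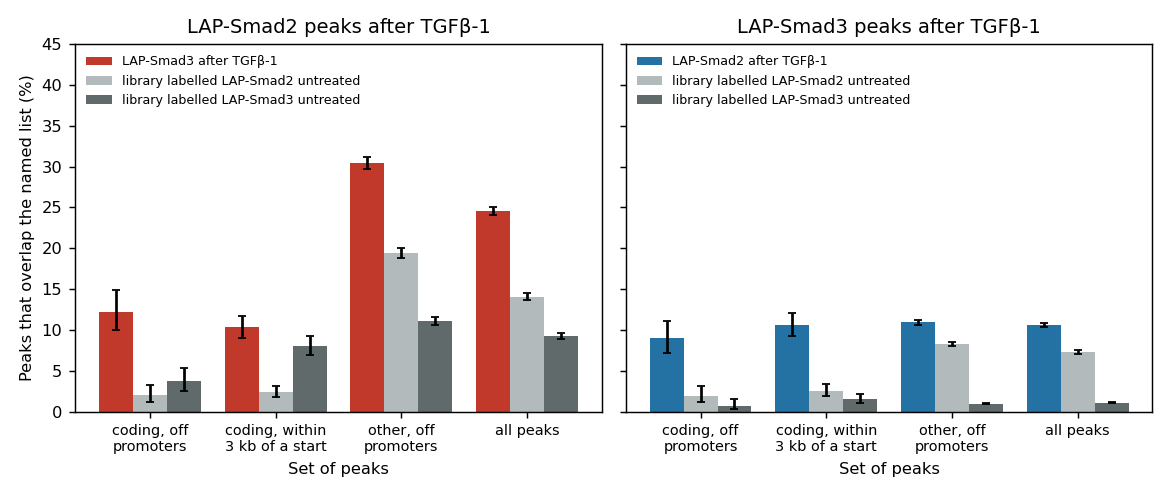
Share (%) of LAP-Smad2 peaks (left) and LAP-Smad3 peaks (right) after TGFβ-1 that overlap each of the other lists, for members, coding peaks within 3 kb of a start, other peaks off promoters and all peaks, with 95% Wilson intervals. LAP-Smad2 members overlapped LAP-Smad3 peaks in 12.2% of cases against 24.5% of all LAP-Smad2 peaks and 10.3% of coding peaks near a start.

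The share that overlapped was lowest at high GC content among LAP-Smad2 members and at low GC content among LAP-Smad3 members. For LAP-Smad2 it was 5 of 26 (19.2%, 8.51 to 37.9) below 60% GC, 15.6% (11.6 to 20.6) between 60 and 65% GC and 12.4% (9.15 to 16.5) between 65 and 70%, and 4 of 121 (3.31%, 1.29 to 8.19) at 70% and above. For LAP-Smad3 it went the other way, from 13 of 372 (3.49%, 2.05 to 5.89) below 60% to 9.79% (7.02 to 13.5) between 60 and 65%, 25 of 107 (23.4%, 16.4 to 32.2) between 65 and 70% and 4 of 17 (23.5%, 9.56 to 47.3) at 70% and above. Overlapping peaks share sequence, and few LAP-Smad2 members lay below 60% GC and few LAP-Smad3 members at 70% and above. These trends are therefore not independent of the GC ranges of the lists. Members of one list overlapped members of the other in 62 pairs in 57 genes, with a median distance of 90 bp between summits, and 34 pairs had summits within 100 bp. In FCGBP, which encodes an IgG Fc binding mucin-like protein, 3 of 6 LAP-Smad2 and 3 of 5 LAP-Smad3 members overlapped the other list. ZKSCAN3, a zinc finger gene, held a pair with folds of 5.20 and 5.86 whose summits were 130 bp apart. PPP1R16B, a regulatory subunit of protein phosphatase 1, held one with folds of 4.25 and 7.28 at 120 bp, and ETV7 one with folds of 4.68 and 5 at 70 bp. In TCAF1, which encodes a TRP channel-associated factor, the folds were 4.04 and 8.83, with summits 14 bp apart.

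Sequence that recurs in the genome was common among LAP-Smad3 members. A window was counted as having a near-identical copy when at least 90% of its bases matched at another place in hg38. This held for 215 LAP-Smad3 members (26.1%, 23.2 to 29.2), 68 LAP-Smad2 members (9.66%, 7.69 to 12.1) and 7.13% of windows taken at every 1000th CDS base that meets the rule. The CDS share is not weighted by GC content. Copies were not counted over all peaks of the lists, so whether these shares are particular to the members is not known. Of the 10 LAP-Smad3 members with the highest −log10 q, 10 had a copy, and of the 10 of LAP-Smad2, 1 had. The LAP-Smad3 ones lay in HRNR (3 members), NPIPB13 (2), FAM90A11P, NBPF1, GOLGA6L9, TCAF1 and FCGR2B, the last an inhibitory Fc receptor, and their folds ran from 8.39 in NBPF1 to 12 in HRNR. Those of LAP-Smad2 included members in ETV7 (fold 4.68), LRFN2 (5.14), FAM90A12P (5.10, the one with a copy), DNMT3A (6.47), DIP2C (6.59), TNXB (5), SNX21 (5.48), TRERF1 (4.46) and MYO15A (5.96). DNMT3A is a de novo DNA methyltransferase, LRFN2 a synaptic adhesion protein, SNX21 a sorting nexin and MYO15A an unconventional myosin of the inner ear. The LAP-Smad2 members in ETV7 and FAM90A12P overlapped the list labelled LAP-Smad3 untreated, as did the LAP-Smad3 member in ETV7.

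The shared sites held copies more often than the members as a whole. Of the LAP-Smad2 members with a copy, 32 (47.1%, 35.7 to 58.8) overlapped the LAP-Smad3 list, against 54 (8.49%, 6.57 to 10.9) of those without. For LAP-Smad3 members the shares were 33 (15.3%, 11.1 to 20.8) and 41 (6.74%, 5.01 to 9.02). Of the 62 overlapping pairs, 29 had a copy, including those in HRNR, HS3ST3A1, FCGBP, POTEI, ZKSCAN3 and NPIPB13, and 33 had none, including those in TRERF1, PPP1R16B, ETV7 and the ankyrin repeat gene ANKS1A. Reads from a copy can be placed at any of its places, and how the authors' pipeline treated them is not given in the sources used here.

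At the level of genes, 597 of 13753 genes (4.34%) held a LAP-Smad2 member and 674 (4.90%, counted by gene identifier) a LAP-Smad3 member. Both lists were found in 148 genes (67 with equally long lists), 24.8% (21.5 to 28.4) of the LAP-Smad2 and 22.0% (19.0 to 25.2) of the LAP-Smad3 genes. In 57 of these genes the members overlapped, and in 91 they lay apart. Long and GC-rich genes held more: among genes with 4000 bp or more of CDS that meets the rule, 14.6% held a LAP-Smad2 and 19.3% a LAP-Smad3 member, against 1.23% and 1.74% of genes under 500 bp. Among genes with a mean GC content of 60% or more, 15.2% held a LAP-Smad2 member and 11.5% a LAP-Smad3 member, and below 45% these were 0.131% and 0.393%.

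Among LAP-Smad2 members, TNXB and FCGBP held 6 each, HMCN2, which encodes the matrix protein hemicentin 2, held 5, and CDH22, DSCAML1, ADAMTS14 and FBN3 held 4 each. CDH22 is a cadherin, DSCAML1 a neuronal adhesion protein, ADAMTS14 a procollagen-processing protease and FBN3 a fibrillin. HRNR, TBC1D2 and CDH23 held 3 each. All 6 FCGBP and all 3 HRNR members had a copy. The HMCN2 members had folds of 3.62 to 5.08, GC contents of 60 to 69.0% and 0 copies, and 1 of them overlapped a LAP-Smad3 peak. Of the 6 TNXB members, 2 had a copy and the same number overlapped a LAP-Smad3 peak.

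Among LAP-Smad3 members, MUC12, a membrane mucin, held 11, with folds of 4.47 to 6.25 and GC contents of 52.5 to 60%, and all 11 had a copy and 0 overlapped a LAP-Smad2 peak. EPPK1, which encodes the plakin epiplakin, held 7, MUC4 6, HRNR 5 and AHNAK2 5, while NUTM2E and TBC1D3C held 4 each. All 6 MUC4 and all 5 HRNR members had a copy. Windows of members in AHNAK2, NUTM2E and TBC1D3C recur at up to 7, 7 and 15 places. The 7 EPPK1 members had GC contents of 68.5 to 71.5%, all had a copy, and all 7 overlapped the list labelled LAP-Smad2 untreated. ITPR3, an inositol trisphosphate receptor that releases calcium, held 6 members with 0 copies, at folds of 4.14 to 6.28, and TRERF1 held 5 with 0 copies, at folds of 3.69 to 6.88. FCGBP held 5.

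Genes of TGFβ signalling held coding peaks at about the share of all genes. Of 64 genes on the list, 47 had CDS that meets the rule, and 42 of these held no member of either list. PMEPA1 (fold 2.97, −log10 q 2.94) and SNAI1 (fold 2.91, −log10 q 2.82), a zinc finger repressor of epithelial genes, held 1 LAP-Smad2 member each. TGFBR3 (fold 5.85, −log10 q 5.37) and DAB2 (fold 5.52, −log10 q 4.72) were among the genes with 1 LAP-Smad3 member. None of the 5 members in genes of the list overlapped a peak of another list, and none had a copy. The CDS of the listed genes would hold 2.03 LAP-Smad2 and 2.58 LAP-Smad3 members at the density that CDS of the same GC content had over the genome, against the 2 and 3 found, and 4.26% and 6.38% of the genes held one, near the 4.34% and 4.90% of all genes. SMAD2 and SMAD3, whose sequence the BACs carry, held 0 members of either list in the 812 and 172 bp of their CDS that meet the rule.

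Some gene families held more members than CDS of their GC content. Genes of families spread by low copy repeats, such as NPIPB13, NBPF1, POTEI and FAM90A11P, had 73 LAP-Smad3 members in 48 of 301 genes, 4.57 times the 16.0 of CDS with the same GC content, and 70 of the 73 had a copy. The same genes had 11 LAP-Smad2 members, 1.65 times the 6.65 of such CDS, and 10 had a copy. Mucins had 20 LAP-Smad3 members, 1.85 times the 10.8 of such CDS, 18 of them with a copy, and 2 LAP-Smad2 members, both in MUC21, against 8.32. Olfactory receptors had 5 LAP-Smad3 members in 5 of 95 genes, among them OR2A42 and OR2A1, against 2.04 of such CDS, and all 5 had a copy. That is 5.26% of these genes, near the 4.90% of all genes. They had 1 LAP-Smad2 member, in OR2I1P, against 0.480 of such CDS. It lay in 1.05% of these genes, below the 4.34% of all genes.

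A list of matrix and basement membrane genes outside the collagens, which holds TNXB and FBN3 but not HMCN2 or ADAMTS14, had 17 LAP-Smad2 members in 8 of 34 genes, 2.18 times the 7.80 of CDS with the same GC content. Of the 17, 6 were in TNXB and 4 in FBN3. ACAN (fold 5.70), the proteoglycan aggrecan, the laminin chain LAMA3 (5.46) and LAMB4 (5.22) followed by −log10 q. The same genes had 10 LAP-Smad3 members (5 with equally long lists), 1.19 times the 8.42 of such CDS, among them 4 in TNXB and 2 each in LAMA3 and LAMC3. Collagens had 5 LAP-Smad2 members, in genes such as COL27A1 and COL23A1, and 8 LAP-Smad3 members, in genes such as COL9A1 and COL1A2, 0.797 and 1.03 times such CDS.

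The remaining families lay on either side of the CDS of their GC content. Chromatin regulators had 7 LAP-Smad2 members, among them members in DNMT3A, TET3 and TRRAP. They had 8 LAP-Smad3 members in 6 genes, which included NCOR1, NCOA6, TET2 and also TRRAP, which held 3. These counts were 0.846 and 0.894 times such CDS, and 2 of the genes held members of both lists. NCOR1 is a nuclear receptor corepressor, and TET2 and TET3 are dioxygenases that oxidise 5-methylcytosine. Of 526 C2H2 zinc finger genes, 15 held LAP-Smad2 and 18 LAP-Smad3 members, with 19 members in each list, 0.639 and 0.713 times such CDS. Nuclear receptors held 3 LAP-Smad2 members, in PPARD, HNF4A and NR2F6, and 2 LAP-Smad3 members, in RXRA and HNF4A, 1.41 and 0.784 times such CDS. Genes of calcium, sodium and potassium channels, taken by symbol and not all voltage-gated, had 8 and 6 members, 0.592 and 0.454 times such CDS, and the leak channel gene KCNK17 (fold 5.05) and the voltage-gated CACNA1A (fold 5.48) led those of LAP-Smad2. Protocadherins and large cadherins had 3 members of each list, 1.19 and 0.830 times such CDS, with FAT3 first for LAP-Smad2 and FAT2 for LAP-Smad3. Giant scaffold and cytoskeletal genes had 16 LAP-Smad2 members, 0.571 times such CDS, and 33 LAP-Smad3 members, 1.16 times, 21 of the 33 with a copy.

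The members were spread unevenly over the chromosomes, in much the same way in both lists. Relative to CDS of the same GC content, 10 of 23 chromosomes (Y left out) had more members than their share in both lists, 9 had fewer in both and 4 were split. Chromosome 6 held 65 LAP-Smad2 members, 2.38 times the 27.3 of such CDS, and 62 LAP-Smad3 members, 1.69 times the 36.6. Chromosome 20 was at 1.63 and 1.59 times and chromosome 10 at 1.72 and 1.6 times. Chromosome 22 held 7 members against 28.5 and 4 against 30.1, 0.245 and 0.133 times, and the X chromosome 5 against 16.3 and 8 against 26.7, 0.306 and 0.300 times. Peaks off promoters outside CDS, per Mb and relative to the genome, were at 1.23 and 1.20 on chromosome 6, 1.89 and 1.62 on chromosome 20, 0.444 and 0.735 on X and 1.03 and 1.27 on chromosome 22. These last ratios are not weighted by GC content. Per Mb of CDS, also unweighted, chromosome 22 held 25.6 and 14.6 members, against 45.5 and 53.2 over all CDS that meets the rule. On either measure coding peaks were scarce on chromosome 22, while other peaks off promoters were not. The stretch of chromosome 6 between 30 and 40 Mb held 31 LAP-Smad2 and 28 LAP-Smad3 members, 256 and 231 per Mb of CDS, and includes TNXB, ITPR3, ETV7 and ANKS1A.

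**Figure D5:**
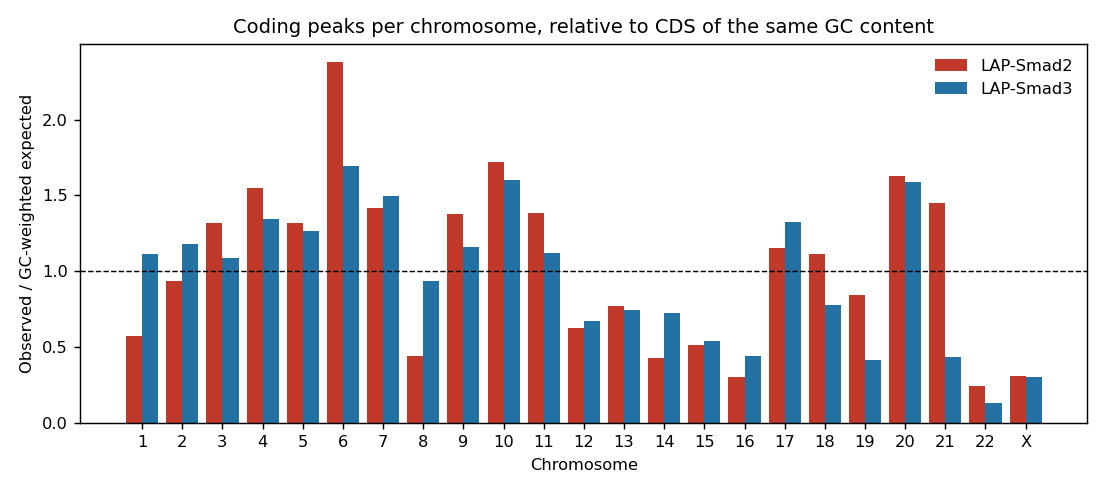
Number of members per chromosome divided by the number that the chromosome's CDS would hold at the genome-wide density of its GC content, for LAP-Smad2 and LAP-Smad3; the dashed line is at 1 and Y is not shown. Chromosome 6 reaches 2.38 and 1.69 and chromosome 22 0.245 and 0.133.

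Chromosome 19, whose CDS that meets the rule has a mean GC content of 53.7%, held far more LAP-Smad2 than LAP-Smad3 members. It held 82 LAP-Smad2 and 30 LAP-Smad3 members, 93.2 and 34.1 per Mb of CDS, which was 0.845 and 0.416 times CDS of the same GC content. Its LAP-Smad2 members include those in FCGBP and FBN3, and FCGBP was also 1 of the genes with most LAP-Smad3 members. Chromosome 17 held 51 and 68 members, a LAP-Smad3 to LAP-Smad2 ratio of 1.33, near the 1.17 of all members. Its stretch between 30 and 40 Mb, where the TBC1D3 genes lie, held 7 LAP-Smad2 and 29 LAP-Smad3 members, 75.3 and 312 per Mb of CDS. Windows of LAP-Smad3 members in TBC1D3 genes recur in the genome, at up to 19 places for TBC1D3K.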

How the data were processed

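Anti-GFP ChIP-seq was analysed from 4 deposited peak lists, 1 library per condition. For each list, the authors had mapped single-end reads with Bowtie2 (build hg38), lengthened each read to 200 bp and run MACS2 on the single library, keeping peaks up to q = 0.05. Fold enrichment was deposited as a ratio of pileup to local background at the summit, and the p-value and q-value as −log10 values. The offset of the summit from the interval start was deposited beside them. The control library, tool versions and the read total of each library are not given in the sources used here. The study's methods state only a minimum for sequencing, and the depth per library is unknown.

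Members were found with Python 3.11.15, numpy 2.4.6, pandas 2.3.3 and pysam 0.24.0 on GENCODE release 44, and 0 peaks lay beyond a chromosome end in hg38. Exon position was read from the canonical transcript where its CDS held the centre, otherwise from the transcript with the longest CDS that held it. GC content, CpG and motifs were counted in 200 bp windows. The reference "CDS of the same GC content" weights all CDS bases that meet the rule to the members' GC content in bins of 2%; expected members use the same bins. Copies were found with minimap2 2.31. The functions passed 11 of 11 checks on made-up data. Intervals are Wilson 95% and cover counting error only.

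Named genes were the 10 members with the highest −log10 q of each list, the 10 genes with most members, the 10 best overlapping pairs, members in all lists, up to 4 genes per family and every TGFβ signalling gene with a member. Sequences followed the same ranking. ETV7, PPP1R16B and ANKS1A as overlapping pairs, the TRERF1 sequence and the fold steps were chosen after their values were seen. So were the untreated overlaps of EPPK1, ETV7 and FAM90A12P. The members and lists were chosen with earlier results of these data known. Some genes are counted with the members but are not reported by name here.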

Additional observations from a re-analysis of the deposited data

How the results depend on the processing

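Of 277 values under 16 alternatives, 228 stayed within the interval or the 1.5-fold range of the value reported. With equally long lists, LAP-Smad3 had 357 members in 298 genes, at 60.2% GC, with 27.2% in the last coding exon and 21.6% in exons of at least 1 kb. It then had 1 member in TGFβ signalling genes and 5 in matrix genes, and 67 genes held both lists and 5.40% of LAP-Smad2 members overlapped. Without windows that have a copy, the overlap was 8.49% of LAP-Smad2 and 6.74% of LAP-Smad3 members, the LAP-Smad3 shares in last exons and in exons of at least 1 kb were 20.2% and 12.8%, and there were 1 and 3 members in low copy repeat families. With mutual overlap of at least 50% the overlap was 5.97% and 5.22%, and with summits within 100 bp 5.97% and 4.74%. LAP-Smad2 GC content was 66.5% in windows of 100 bp, 64.0% in 400 bp and 65.7% over whole intervals. LAP-Smad3 was at 58.9% in 400 bp, where the difference was 5.09 points. Beyond 1 kb from a start there were 1102 and 1476 members in 937 and 1200 genes, 253 of them in both, with LAP-Smad3 at 60.9% GC, 28 and 136 members in low copy repeat families and 16 LAP-Smad3 members in matrix genes. Beyond 5 kb, low copy repeat families held 5 and 48 members and TGFβ signalling genes 1 LAP-Smad2 member. With starts of protein_coding transcripts only, there were 1084 and 1438 members in 904 and 1128 genes, 250 in both, with 29.4% and 20.2% in last exons and 14.1% and 13.9% in exons of at least 1 kb. TGFβ signalling genes then held 5 and matrix genes 18 LAP-Smad3 members. With summits in place of centres, TGFβ signalling genes held 1 LAP-Smad2 member, and leaving out members that overlap an untreated list left 6 LAP-Smad2 members in low copy repeat families. The alternatives with fewer peaks or other distances change the counts by construction, and for the other values the cause was not tested. No paired analysis was possible because each condition has 1 library. The depth of each library is unknown and no value has a replicate.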
